A study of Mus musculus with 38 samples.

Results

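The genes described here are 48 members of the Wnt pathway at the cell surface and just below it: 19 Wnt ligands, 10 Frizzled receptors, 5 co-receptors and other Wnt receptors, 10 secreted modulators and 4 intracellular members. They were chosen by gene symbol, as every measured Wnt, Frizzled, Dkk and Sfrp gene together with Lrp5, Lrp6, Ror1, Ror2, Ryk, Frzb, Wif1, Ctnnb1, Axin1, Axin2 and Lef1, and make up 48 of 19087 named genes and 86 of 45220 array features. Tcf7 fell under the same rule and was not measured. Small vessels with an outer diameter of 50 to 100 µm were cut by laser from lung sections of C57BL/6J mice aged 12 to 18 weeks. The vessels came from mice kept for 21 days at an inspired oxygen fraction of 0.21 (normoxia, 8 animals) or of 0.1 (hypoxia, 23 animals), or kept in hypoxia for 21 days and then returned to normoxia for 1 day (11 animals), 3 days (12), 7 days (12) or 14 days (10). All groups are of the same strain with no genetic change named in the labels, and RNA of 1 animal went into each of the 2 channels of 38 Agilent arrays. Animals were counted as 1 per channel, so each channel was taken to be a different animal.

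Wnt proteins are secreted, lipid-modified ligands that bind Frizzled receptors. With the co-receptors Lrp5 and Lrp6 they stabilise β-catenin, which acts with Lef1 and related factors on transcription, and with Ror2, Ror1 or Ryk they act on cell shape, polarity and movement without β-catenin. Secreted proteins of the Sfrp family and Wif1 bind Wnt ligands, and some Dkk proteins, among them Dkk1, bind the co-receptors. Axin2 is both a brake on β-catenin and one of its transcriptional targets. In the lung, Wnt signals are known for branching, alveolar repair and the growth of vascular smooth muscle and endothelium.

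Each deposited value is a log ratio of the channels of an array, and a difference between conditions below is a log ratio on that scale with the standard error (SE) of a limma fit over all 38 arrays. The base of the logarithm is not given in the sources used here, and Cy5 over Cy3 was taken as the direction by convention, so a reversed convention would turn every sign. A member was called when its p, adjusted by the Benjamini-Hochberg method over all 30653 entries of the array, was under 0.05. Array names give the condition in Cy3, then that in Cy5, then the replicate. Normoxia is written N, hypoxia H, and a number after N is the day of return. In H_N 1, for example, hypoxia was in Cy3. Array SDs ran from 0.0742 to 0.192, and no brightness was used, so neither a level of a gene nor the presence of vessel markers could be read from these ratios. In dissected tissue, fewer cells of a type and less RNA per cell cannot be told apart.

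The first comparison asked which Wnt genes differ in vessels after 21 days of hypoxia. Of the 48 genes, 3 were called and all 3 were lower in hypoxia: the secreted modulator Sfrp2, the ligand Wnt6 and the receptor Ror2. The 3 genes are 6.25% of the members, beside 3.60% of all entries called in either direction and 2.25% called as lower. No ligand, receptor or modulator was called as higher. The test over all 5 condition terms at once called none of the 48 (adjusted p = 0.0633 for Wnt6, 0.0793 for Ror2 and 0.264 for Sfrp2), beside 175 entries. Before adjustment, 11 members (22.9%) had a p under 0.05, against 16.8% of all entries, and 18 members were higher and 30 lower, with a median of -0.0138 against -0.00397 over all entries. These shares are descriptions, and nothing particular to the pathway is read from them. In a fit of the 8 direct arrays alone, which has fewer arrays to estimate the spread, the values were the same and none was called (adjusted p = 0.0717 for Wnt6, 0.115 for Sfrp2 and 0.168 for Ror2). That fit called 103 of all 30653 entries, beside 1102 in the fit of all arrays.

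**Figure D1:**
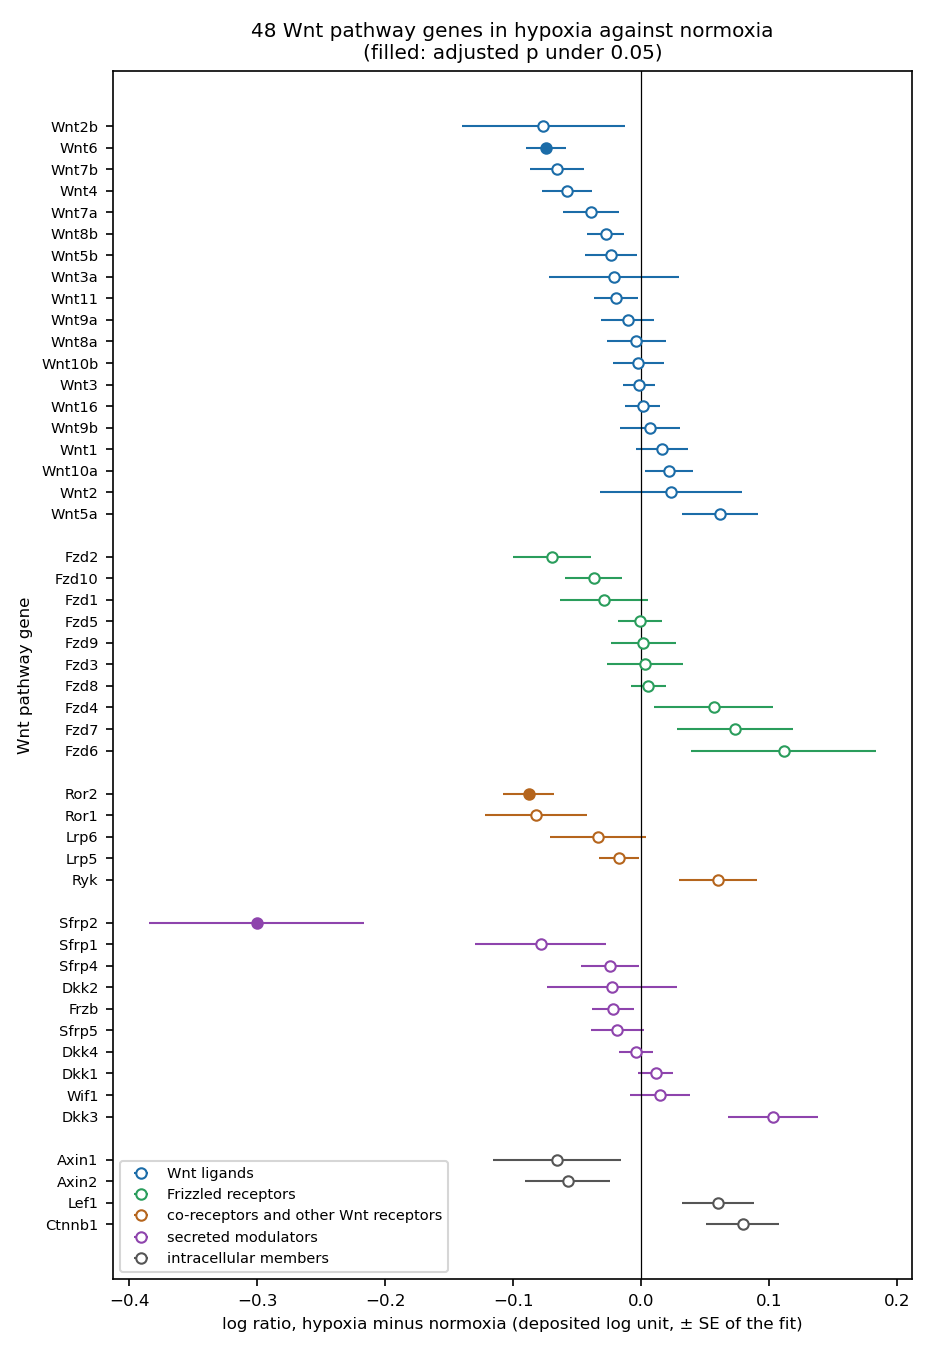
Log ratio of hypoxia minus normoxia for the 48 genes, ordered by role and value; points are fitted log ratios, bars are ± SE and filled points have an adjusted p under 0.05. Sfrp2 lies at -0.300 and the next lowest member, Ror2, at -0.0878, while the highest, Fzd6, lies at 0.111 with a long bar.

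Among the secreted modulators, Sfrp2 had the widest difference of any member. Sfrp2 is a frizzled-related protein that binds Wnt ligands outside the cell, made mainly by fibroblasts and other mesenchymal cells. With the dye effect removed, hypoxia minus normoxia for Sfrp2 was -0.489, -0.474, -0.0201 and -0.193 on arrays H_N 1 to H_N 4, and -0.0295, -0.605, -0.202 and -0.389 on arrays N_H 1 to N_H 4. Sfrp2 was thus lower in hypoxia on 8 of 8 arrays, but on arrays H_N 3 and N_H 1 the difference was close to 0, and on N_H 1 the value as deposited was 0.0096. The fitted difference was -0.300 ± 0.084 (SE; 8 arrays set hypoxia against normoxia, SD between them 0.220), with an adjusted p of 0.0365 in limma. If the deposited values are log10, this is 2.0-fold lower, and if they are log2, 1.23-fold lower. Without any one of the arrays H_N 1, N_H 2, H_N 2, N_H 3 or N_H 4, the adjusted p of Sfrp2 lay between 0.0657 and 0.117, at values of -0.255 to -0.315, while the gene stayed called in the other 33 of 38 fits that left out 1 array. With all arrays scaled to 1 spread, Sfrp2 had -0.292 and an adjusted p of 0.0608.

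The region before the transcription start of Sfrp2 is printed here with those of Wnt6 and Ror2, since these are the 3 genes that were called. Each is a window of 250 bases that ends at the start site, from RefSeq on GRCm38.p6, read 5′ to 3′ on the gene's strand, with CG pairs in capitals: Sfrp2 at chr3:83766071-83766320 on the plus strand, Wnt6 at chr1:74771642-74771891 on the plus strand and Ror2 at chr13:53286125-53286374 on the minus strand.
Sfrp2: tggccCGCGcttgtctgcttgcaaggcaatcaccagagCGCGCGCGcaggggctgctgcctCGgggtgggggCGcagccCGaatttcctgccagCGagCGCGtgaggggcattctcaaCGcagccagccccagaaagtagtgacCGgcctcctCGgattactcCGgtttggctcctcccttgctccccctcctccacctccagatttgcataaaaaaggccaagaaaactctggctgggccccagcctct
Wnt6: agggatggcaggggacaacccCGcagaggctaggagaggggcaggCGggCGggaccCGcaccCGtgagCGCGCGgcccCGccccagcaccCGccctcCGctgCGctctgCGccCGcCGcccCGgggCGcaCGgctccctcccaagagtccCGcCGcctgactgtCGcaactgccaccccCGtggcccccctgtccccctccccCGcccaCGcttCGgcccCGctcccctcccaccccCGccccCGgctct
Ror2: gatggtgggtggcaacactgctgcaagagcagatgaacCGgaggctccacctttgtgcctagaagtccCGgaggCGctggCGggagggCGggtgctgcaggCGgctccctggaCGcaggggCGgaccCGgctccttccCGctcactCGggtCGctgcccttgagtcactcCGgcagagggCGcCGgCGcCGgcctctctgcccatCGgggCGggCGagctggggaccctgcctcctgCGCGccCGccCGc
The window of Wnt6 holds 28 CG pairs, that of Ror2 24 and that of Sfrp2 16, against a median of 6 over 32851 promoters, of which 7.61% hold 28 or more, 12.0% hold 24 or more and 25.4% hold 16 or more. GC content was 79.6% in Wnt6, 73.2% in Ror2 and 63.6% in Sfrp2, against a median of 52.4% over all promoters. In all, 33 members had an entry, with 40 windows. The 37 windows of the members that were not called had a median of 21 CG pairs and of 66.4% GC, with 5 of them at or below the median CG count of all promoters. Both strands were searched for ACGTG, a form of the core bound by hypoxia-inducible factors, and for CTTTGA, the core bound by Lef1 and related factors. No match of one overlapped a match of the other in the member windows. The form GCGTG of the first core was not searched for, so the counts below cover only a part of that element. ACGTG is also part of the E-box CACGTG, which other factors bind and which holds it on both strands. A window counts once however often it holds a string. ACGTG was in 6 of the 40 member windows (15%), 4 of which hold CACGTG (10%), and in 16.6% of all promoters (CACGTG in 6.02%), and CTTTGA in 7 of 40 (17.5%) and in 13.8% of all promoters. Neither string was in the 3 windows printed above, which says only that these letters are not in these windows. The unsearched form GCGTG can be read in the window of Sfrp2 and, on the other strand, in that of Wnt6. Lef1 and Wnt11 were the members with both strings in 1 window.

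The other 9 secreted modulators were not called. Dkk3, a divergent member of the Dickkopf family, was higher on 8 of 8 arrays, from 0.0118 on N_H 2 to 0.213 on H_N 2, with a median of 0.0794 and a fitted difference of 0.103 ± 0.035 (adjusted p = 0.0963 in limma). It was called only when array H_N3 1, which holds no normoxia, was left out (adjusted p = 0.0455). With the mean of alveolar type 1 and 2 markers as a covariate, Dkk3 had 0.0369 ± 0.0535 (adjusted p = 0.895). Sfrp1, a close relative of Sfrp2, had -0.0783 ± 0.0513, lower on 6 of 8 arrays, and its adjusted p was 0.479; its 2 features had -0.147 and -0.0101. The remaining 7, which are Sfrp4, Sfrp5, Dkk1, Dkk2, Dkk4, Frzb and Wif1, lay between -0.0242 for Sfrp4 and 0.0148 for Wif1. Whether Sfrp2 differed from the other members of its family was not tested.

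Among the 19 ligands, 13 had a lower and 6 a higher value in hypoxia. Wnt6, a ligand best known from epithelial and mesenchymal exchange in development, was the only one called. It had -0.0670, -0.0639, -0.0731 and -0.0615 on H_N 1 to H_N 4, and -0.0949, -0.0985, -0.110 and -0.0265 on N_H 1 to N_H 4. All 8 values were below 0, and array N_H 4 was the nearest to it. The fit gave -0.0744 ± 0.0156 (SD between the 8 arrays 0.0264), with an adjusted p of 0.00495 in limma, or 1.19-fold lower on a log10 and 1.05-fold lower on a log2 reading. Wnt6 stayed called in all 38 fits that left out 1 array, with values from -0.0815 to -0.0692. Of its 2 features, 1 had -0.102 (adjusted p = 0.00713 in the fit of single features) and the other -0.0466 (adjusted p = 0.120).

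The other ligands did not pass the threshold. Wnt7b, which signals from lung epithelium to the mesenchyme and vessels during development, had -0.0656 ± 0.0210 and was lower on 7 of 8 arrays (adjusted p = 0.0737 in limma); it was called when array H_N7 1 or array N_H 4 was left out, with adjusted p of 0.0299 and 0.0395. Wnt4 had -0.0581 ± 0.0196 and was lower on 8 of 8 arrays, from -0.163 on N_H 4 to -0.000392 on N_H 3 (adjusted p = 0.0917). At the other end, Wnt5a, a ligand of Ror2 that acts mostly without β-catenin, had 0.0617 ± 0.0295, higher on 6 of 8 arrays, of which array H_N 4 alone reached 0.235 (adjusted p = 0.279). The lowest fitted value among ligands was that of Wnt2b, a ligand of the embryonic lung mesenchyme, at -0.0763 ± 0.0636, but its 8 arrays ran from -0.458 to 0.367 and overlapped 0 widely (adjusted p = 0.609). The fitted differences of Wnt2, the related mesenchymal ligand, and of Wnt3a, which acts through β-catenin, were 0.0235 ± 0.0554 and -0.0211 ± 0.0511. The other 12 ligands lay between -0.0394 for Wnt7a and 0.0221 for Wnt10a.

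Most ligands spread less over the arrays than other entries did, but not all. Ranked by their SD over the 38 arrays among all entries, the 19 ligands ran from percentile 2.14 to 97.9 (Wnt2b), with Wnt2 at 91.4 and Wnt3a at 86.0, and had a median of 24.1, against 53.9 for the 10 Frizzled genes and 52.1 for the 5 other receptors. Sfrp2 was at percentile 99.8, Ror2 at 36.5 and Wnt6 at 21.1. Both small called differences thus came from genes whose log ratios spread less than those of most entries. Each of these genes is a mean of 2 features, and a mean can have a lower SD than a single feature. The percentiles therefore do not describe the single features. Wnt6 lay among the entries with the lowest SD, which one alternative setting left out.

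**Figure D2:**
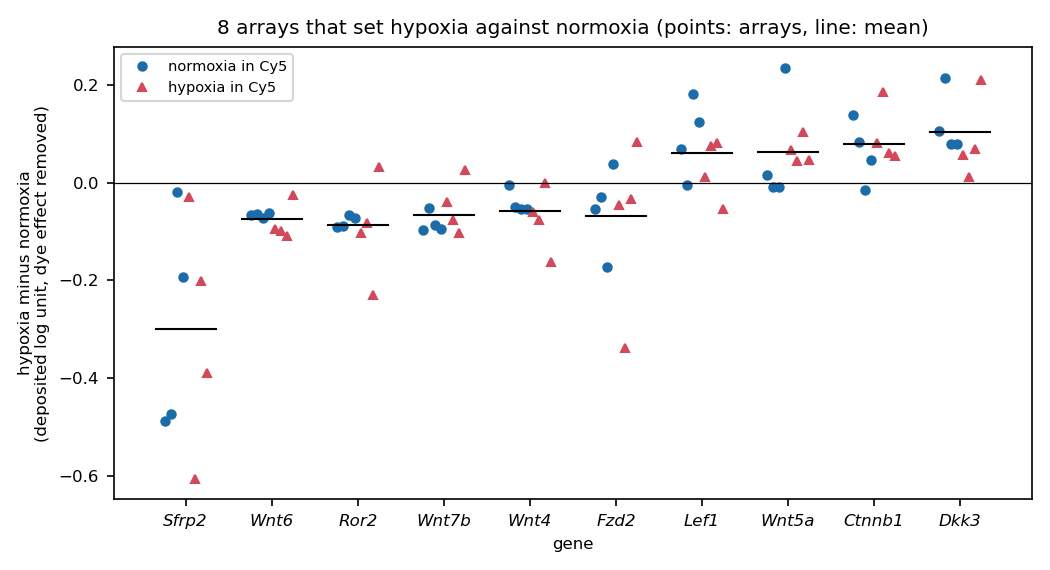
Hypoxia minus normoxia on each of the 8 arrays for the 10 members with the smallest p, in log ratio with the dye effect removed; circles have normoxia in Cy5, triangles have hypoxia in Cy5, and lines are means. All 8 points of Sfrp2, Wnt6 and Wnt4 lie below 0 and all 8 points of Dkk3 above 0, with Sfrp2 spread from -0.605 to -0.0201.

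Among the receptors, Ror2 was called. Ror2 is a receptor tyrosine kinase for Wnt5a in the branch without β-catenin. Its values were -0.0916, -0.0881, -0.0663 and -0.0719 on H_N 1 to H_N 4, and -0.104, -0.0826, -0.230 and 0.0317 on N_H 1 to N_H 4. Ror2 was lower in hypoxia on 7 of 8 arrays, and the 4 N_H arrays spread far more than the 4 H_N arrays. The fit gave -0.0878 ± 0.0199 (SD between the 8 arrays 0.0712) with an adjusted p of 0.00937 in limma, or 1.22-fold lower on a log10 and 1.06-fold lower on a log2 reading. Without array N_H 3 the value was -0.0669 with an adjusted p of 0.0635, while the other 37 fits that left out 1 array called Ror2.

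The 2 features of Ror2 did not show the same size of difference. One had -0.169 (adjusted p = 0.00607 in the fit of single features) and the other -0.00696 (adjusted p = 0.885). The call on Ror2 thus rests on 1 feature, and which transcripts the features match is not given in the sources used here. Ror2 also had a dye effect of -0.0363 (adjusted p = 0.0495), so that its values as deposited had a mean of -0.0432 on the H_N arrays and -0.132 on the N_H arrays. Both means were below 0.

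The other receptors were not called. Ror1, the closest relative of Ror2, had -0.0819 ± 0.0400 and was lower on 8 of 8 arrays (-0.198 to -0.0041, adjusted p = 0.293 in limma). Ryk, a Wnt receptor with an inactive kinase, had 0.0602 ± 0.0305, with array H_N 4 at 0.269 and array N_H 4 at 0.180 well above the other 6, which lay between -0.0330 and 0.0503 (adjusted p = 0.316). The co-receptors Lrp5 and Lrp6 had -0.0172 ± 0.0156 and -0.0336 ± 0.0375, the latter a mean of 2 features of opposite sign (-0.132 with an adjusted p of 0.0854, and 0.0647). Of the 10 Frizzled receptors, 6 were higher and 4 lower. Fzd2 had the lowest value, -0.0695 ± 0.0302, of which array N_H 2 gave -0.338 (adjusted p = 0.221), and Fzd6, a receptor of the polarity branch, the highest, 0.111 ± 0.072, with 6 of 8 arrays above 0 and arrays H_N 1 and H_N 4 at -0.272 and -0.229 (adjusted p = 0.469). Fzd7 and Fzd4, a receptor also known for retinal and other vessels, had 0.0735 ± 0.0450 and 0.0567 ± 0.0467.

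None of the 4 intracellular members was called. Ctnnb1, which encodes β-catenin, had 0.0793 ± 0.0288 and was higher on 7 of 8 arrays, from -0.0146 on H_N 3 to 0.186 on N_H 2 (adjusted p = 0.123 in limma). All 12 of its features were above 0, from 0.0146 to 0.122, and none was called. Apart from the features at these ends, they lay between 0.0764 and 0.0846. Values so close may come from repeats of the same measurement, so the features are not read as independent. With the alveolar covariate, Ctnnb1 had -0.00105 ± 0.0418. Lef1, a partner of β-catenin on DNA, had 0.0601 ± 0.0281 (higher on 6 of 8 arrays, adjusted p = 0.266), but of its 3 features 1 had 0.142 and the others 0.0126 and 0.0258. Axin2, the usual readout of β-catenin activity, had -0.0572 ± 0.0331 (adjusted p = 0.398), and Axin1, a scaffold of the complex that degrades β-catenin, had -0.0659 ± 0.050 (adjusted p = 0.562). Values of Ctnnb1 and Axin2 thus had opposite signs, neither past the threshold.

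Of the other genes of the pathway, grouped by where they act, and of its known transcriptional targets, none was called in any of the 13 contrasts of the limma fit. In hypoxia minus normoxia, the number with an unadjusted p under 0.05 was 2 of 12 for secretion and signal boosters, 2 of 12 for surface brakes, 4 of 21 for the cytoplasm, 3 of 15 for the nucleus, 3 of 15 for the polarity branch and 2 of 22 for the targets that are not among the 48 genes. Lgr5 counts in both the first and the last of these lists. The share over all entries was 16.8%, and none of the lists is read as differing from it. The nearest to the threshold was Intu, an effector of planar polarity and cilia, at 0.0771 ± 0.0229 (adjusted p = 0.0502). Wls, which carries Wnt proteins to the cell surface, had 0.0740 ± 0.0269 and was higher on 8 of 8 arrays (adjusted p = 0.123). Apc and Gsk3b, of the β-catenin degradation complex, had 0.0808 ± 0.0298 and 0.0991 ± 0.0378. Lgr5, an R-spondin receptor and Wnt target, had -0.0501 ± 0.0192 and was lower on 8 of 8 arrays (adjusted p = 0.151), and Cd44, another target, had -0.0681 ± 0.0251. Of the 22 targets, 10 were higher and 12 lower.

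Markers of several cell types, smooth muscle of the vessel wall among them, moved with this comparison. The mean log ratio of alveolar type 1 and 2 markers was above 0 on 8 of 8 arrays, from 0.0357 to 0.139, with 5 of 13 type 1 and 6 of 12 type 2 markers called as higher. Markers of alveolar fibroblasts were above 0 on 8 of 8 arrays (0.0671 to 0.104, 4 of 12 called as higher), markers of smooth muscle were below 0 on 7 of 8 (-0.150 to 0.0023, 5 of 12 called as lower), and markers of adventitial fibroblasts were below 0 on 8 of 8 (-0.0803 to -0.0145, 12 of 15 lower, none called). The endothelial mean was above 0 on 5 of 8 arrays (-0.0274 to 0.0823), with 2 of 12 markers called as higher and 2 as lower. The pericyte mean was above 0 on 6 of 8 (-0.0663 to 0.113), with 1 of 9 called as higher. With the alveolar mean as a covariate, hypoxia minus normoxia was -0.0241 ± 0.0218 for Wnt6 (adjusted p = 0.786), -0.0355 ± 0.0291 for Ror2 (adjusted p = 0.750) and -0.388 ± 0.131 for Sfrp2 (adjusted p = 0.265), and none of the 48 members was called, beside 26 of all entries in place of 1102. The values of Wnt6 and Ror2 were thus nearer to 0 with the covariate, and that of Sfrp2 was farther from it. The SE of all 3 was wider than without the covariate. As the alveolar mean itself moved with the comparison, this fit cannot fully separate them. With the mean of the adventitial and alveolar fibroblast markers together as a covariate, all 3 stayed called. The 2 fibroblast lists had opposite signs here and were not entered one by one. As ratios hold no level, which of these markers are absent from the vessels could not be read, and the part of any of these cell types in the differences was not tested.

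Wnt6 and Ror2 moved together over the arrays, and Sfrp2 did not move with them. Over 38 arrays, Pearson's r was 0.775 for Wnt6 with Ror2 (Spearman's rho 0.735), 0.0522 for Wnt6 with Sfrp2 and 0.0354 for Ror2 with Sfrp2. Over the 30 arrays that hold no normoxia, r was 0.647 for Wnt6 with Ror2, and -0.414 and -0.401 for Wnt6 and Ror2 with Sfrp2. Without the 2 arrays farthest from the median of Ror2, r for Wnt6 with Ror2 was 0.758. The pair had the highest r among all 1128 pairs of members over the 38 arrays, whose median was 0.0121. Both genes were picked because they were called, and the arrays with normoxia that gave those calls are among the 38. No rank was taken over the 30 arrays without normoxia. Each had a higher r with genes outside the pathway, such as Wnt6 with Trpc4 (0.858) and Ror2 with Oas1e (0.858). The points share an array and its hybridisation, so these correlations are descriptions.

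The genes most like the called members differed between them. Those with the highest r to Sfrp2 were Cnn3, an actin-binding protein (0.607), Plat, the tissue plasminogen activator (0.589), Ccn2, a matrix-associated growth factor (0.585), Rasl2-9 (0.562) and Myof (0.562). Those nearest to Wnt6 were Trpc4, a cation channel (0.858), Hcn4, the pacemaker channel of the heart (0.853), Hmga2-ps1 (0.840), Svop, a synaptic vesicle protein (0.833) and Spata31d1d (0.828). Those nearest to Ror2 were Oas1e (0.858), Rps4x, a ribosomal protein (0.847), Krt9, a keratin of the footpad skin (0.843), Dmbt1 (0.830) and Actl9, an actin-like protein of the testis (0.828). Correlated with the alveolar marker mean over the 38 arrays, Wnt6 had an r of -0.659, Ror2 of -0.528, Sfrp2 of -0.274 and Dkk3 of 0.505. With the alveolar fibroblast mean, Wnt6 had -0.671, Ror2 -0.475, Sfrp2 -0.352 and Dkk3 0.606, and with the endothelial mean Wnt6 had -0.630. Sfrp2 had its widest r with the markers of Schwann cells and nerve (-0.502), macrophages (0.425) and smooth muscle (0.420). Several of the genes nearest to Wnt6 and Ror2 are known from heart, nerve, skin or testis, and since no brightness was used, how far their features lay above background was not examined.

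**Figure D3:**
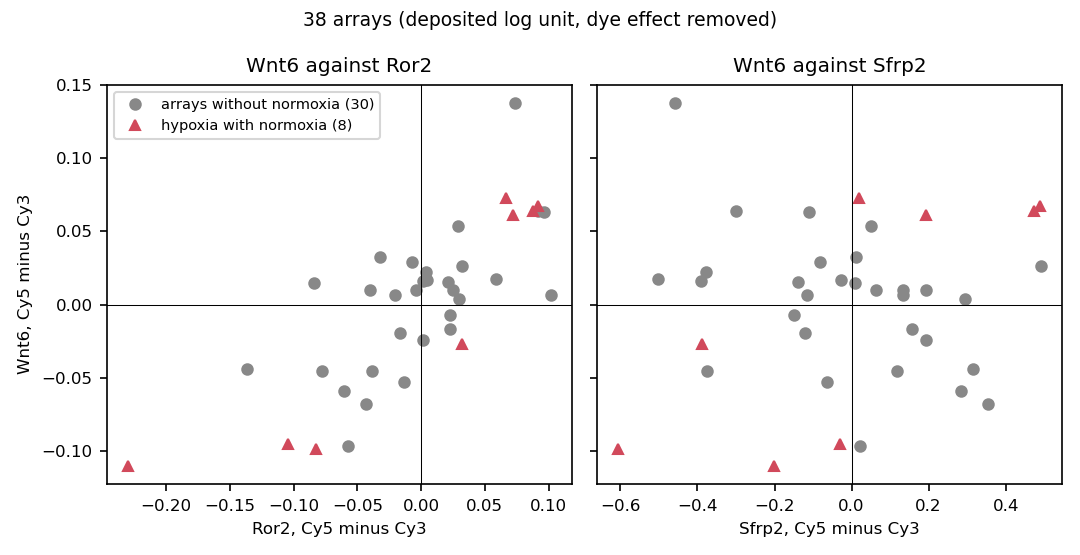
Log ratio of Cy5 minus Cy3 on the 38 arrays, with the dye effect removed, of Wnt6 against Ror2 (left) and against Sfrp2 (right); triangles are the 8 arrays of hypoxia with normoxia and circles the other 30. Wnt6 and Ror2 lie along a diagonal (r = 0.775), while Wnt6 and Sfrp2 do not (r = 0.0522).

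The second question was what happens to the pathway after return to normoxia. Against hypoxia, the limma fit called no member on any day, where the share of all entries called was 0% on day 1, 0.0130% on day 3, 0.0163% on day 7 and 0% on day 14. An unadjusted p under 0.05 was found for 0, 6, 3 and 1 of the 48 members on days 1, 3, 7 and 14, against 3.97%, 9.22%, 6.48% and 4.03% of all entries. Member medians lay between -0.0122 on day 3 and -0.00151 on day 7. Few entries of any kind passed in these contrasts, which rest on 4 direct arrays each, or 3 for day 14.

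Sfrp1, which like Sfrp2 binds Wnt ligands, was above hypoxia on all direct arrays of days 3 and 7 without being called. On day 3 it had 0.215 and 0.147 on H_N3 1 and 2 and 0.173 and 0.251 on N3_H 1 and 2, with a fitted difference of 0.147 ± 0.050 (adjusted p = 0.345 in limma). On day 7 it had 0.190, 0.166, 0.0455 and 0.125 on N7_H 1 and 2 and H_N7 1 and 2, and 0.158 ± 0.050 (adjusted p = 0.549). The 8 values were all above 0, beside -0.0783 ± 0.0513 in hypoxia minus normoxia. The 8 arrays were taken to hold different animals, whereas the fitted values of the 2 days share the hypoxia term of the fit. The 2 features of Sfrp1 differed in size: in the fit of single features they had 0.0408 and 0.252 on day 3, and 0.116 and 0.20 on day 7. In hypoxia minus normoxia the same features, in this order, had -0.147 and -0.0101. The lower value in hypoxia and the higher value on day 3 thus came mostly from different features. Against normoxia on day 3 their signs were opposite (-0.106 and 0.242). Between day 3 and day 1, Sfrp1 was higher on 4 of 4 arrays (0.0964 to 0.337) with 0.113 ± 0.054 (adjusted p = 1.00), and its features had 0.0183 and 0.208.

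Fzd2 had its lowest values on day 3. Against hypoxia it had -0.114, -0.165, -0.0816 and -0.110 on the 4 arrays of day 3, all below 0, and -0.0893 ± 0.0294 (adjusted p = 0.341 in limma). In day 3 minus day 1 it had -0.0599 ± 0.0317, carried by array N3_N1 1 at -0.203, with the other 3 between -0.0291 and 0.0152. Wnt2b had 0.184 ± 0.062 on day 3 (adjusted p = 0.344), but its 4 arrays ran from -0.0657 to 0.402. On day 14 Wnt2b had 0.128 ± 0.068, with arrays from -0.0529 to 0.202, and in day 3 minus day 1 0.139 ± 0.067.

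Lrp5, a co-receptor, had small values that did not pass but kept 1 sign over the direct arrays of each step around day 7. It had 0.0474 ± 0.0153 in day 7 minus hypoxia (0.0184 to 0.119 on 4 arrays, adjusted p = 0.553 in limma), 0.0353 ± 0.0162 in day 7 minus day 3 (0.0156 to 0.0699, adjusted p = 0.453) and -0.0640 ± 0.0167 in day 14 minus day 7 (-0.0733 to -0.0162, adjusted p = 1.00). The last had an unadjusted p of 0.00052, the smallest of a member in any contrast between days of return or between a day and hypoxia. In that step Fzd4 had 0.100 ± 0.050 and Dkk3 0.0826 ± 0.0378, each higher on 4 of 4 arrays. Dkk1, an inhibitor that binds Lrp5 and Lrp6, had -0.0410 ± 0.0149 in day 14 minus hypoxia and was lower on 3 of 3 arrays (-0.0491 to -0.0202).

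The other members with the smallest p in these contrasts showed no more. On day 1, Wnt1 had -0.0378 ± 0.0202 (lower on 4 of 4 arrays), Fzd8 -0.0263 ± 0.0134, of which array N1_H 3 gave -0.0974, and Wnt2 -0.0911 ± 0.0554. On day 7, Wnt8a had 0.0536 ± 0.0226 with array N7_H 2 at 0.327 and the others between -0.0175 and 0.104, and on day 14 Wnt5a had -0.0564 ± 0.0316. In day 7 minus day 3, Wnt6 had 0.0371 ± 0.0162 and Wnt8b 0.0328 ± 0.0152, each with 2 of 4 arrays above 0. In day 14 minus day 1, Dkk1 had -0.0239 ± 0.0162, Wnt2 0.0946 ± 0.0645 and Axin1 0.0819 ± 0.0582, the last with arrays at 0.559, -0.0217 and -0.173, so that without array N1_N14 1 its value was -0.00594. No member was called in the steps between days, where 0% (day 3 minus day 1), 0.00979% (day 7 minus day 3), 0% (day 14 minus day 7) and 0% (day 14 minus day 1) of all entries were called, and where 2, 3, 2 and 0 members (4.17%, 6.25%, 4.17% and 0%) had an unadjusted p under 0.05, against 4.63%, 10.2%, 3.66% and 2.79% of all entries.

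**Figure D4:**
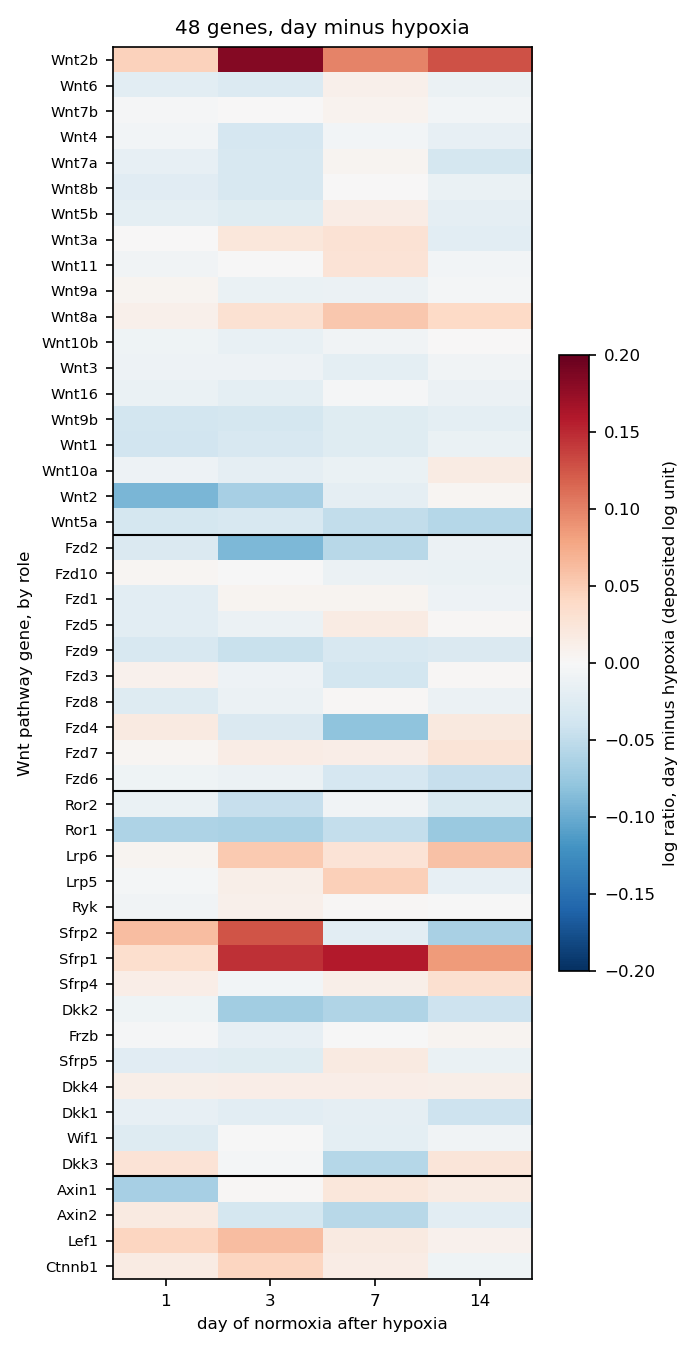
Fitted log ratio of each day of return minus hypoxia for the 48 genes in rows, ordered by role as in the plot of hypoxia minus normoxia, with days 1, 3, 7 and 14 in columns; red is higher and blue lower than hypoxia, on a scale from -0.2 to 0.2. The darkest cells are Wnt2b on day 3 (0.184) and Sfrp1 on days 7 and 3 (0.158 and 0.147), and no cell has an adjusted p under 0.05.

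The third comparison set the days of return against normoxia, to show whether the called genes came back. No array holds both, so these values add hypoxia minus normoxia to day minus hypoxia, and all of them share the same 8 normoxia animals. On day 3, 2 of 48 members were called (4.17%), both lower, beside 0.783% of all entries in either direction and 0.483% called as lower: Ror2 at -0.134 ± 0.028 (adjusted p = 0.0191 in limma) and Wnt6 at -0.101 ± 0.022 (adjusted p = 0.0226). Fzd2 came next at -0.159 ± 0.042 (adjusted p = 0.0592), with features at -0.209 and -0.109. Wnt6 lost the call when array H_N3 1, H_N3 2, N3_H 1 or N_H 3 was left out, with adjusted p from 0.0508 to 0.0551, and Ror2 when H_N3 2 was left out (0.0508), so that the count ran from 0 to 3. On this day, 12 of 12 alveolar type 2 and 8 of 13 type 1 markers were above normoxia and 1 was called, 10 of 12 smooth muscle markers were below and 2 were called as lower, and 9 of 12 alveolar fibroblast markers were above and 2 were called as higher. With the alveolar type 1 and 2 mean as a covariate, Ror2 had -0.0991 (adjusted p = 0.278) and Wnt6 -0.0674 (adjusted p = 0.337), and the part of these cells in the result was not tested.

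On the other days no member was called in the limma fit against normoxia, where 0.111% (day 1), 0.0228% (day 7) and 0.0261% (day 14) of all entries were called, and 10, 8 and 8 members (20.8%, 16.7% and 16.7%) had an unadjusted p under 0.05, against 11.4%, 8.50% and 8.79% of all entries. Wnt6 had -0.0956 ± 0.0220 on day 1 (adjusted p = 0.0646), -0.0642 ± 0.0218 on day 7 (0.349) and -0.0866 ± 0.0228 on day 14 (0.167). Ror2 had -0.101 ± 0.028 (0.127), -0.0946 ± 0.0279 (0.259) and -0.119 ± 0.029 (0.127) on the same days. Sfrp2 had -0.238 ± 0.119, -0.175 ± 0.117, -0.322 ± 0.118 and -0.364 ± 0.123 on days 1, 3, 7 and 14, with adjusted p between 0.290 and 0.530. All 3 genes were below normoxia on every day, and the loss of the call on days 1, 7 and 14 does not show that they differed less there.

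Against hypoxia itself, the fit called none of the 3 on any day. Sfrp2 had 0.125 ± 0.082 on day 3, with 4 of 4 arrays above 0 (0.117 to 0.353, adjusted p = 0.665 in limma), but -0.0642 ± 0.0898 on day 14, with arrays from -0.378 to 0.118. Wnt6 lay between -0.0269 ± 0.0151 (day 3) and 0.0102 ± 0.0153 (day 7), and Ror2 between -0.0465 ± 0.0193 (day 3, lower on 4 of 4 arrays, adjusted p = 0.442) and -0.00678 ± 0.0195 (day 7). These values do not show that the genes stayed where hypoxia had left them, since a p that misses the threshold does not show that values did not differ. Among the other members, Dkk3 had 0.131 ± 0.050, 0.0991 ± 0.0491, 0.0455 ± 0.0493 and 0.128 ± 0.052 against normoxia on days 1, 3, 7 and 14, and Ctnnb1 0.0964 ± 0.0408, 0.123 ± 0.040, 0.0942 ± 0.0404 and 0.0714 ± 0.0422. Fzd2 had -0.0989 ± 0.0428, -0.159 ± 0.042, -0.124 ± 0.042 and -0.0812 ± 0.0443. None of these passed the threshold.

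**Figure D5:**
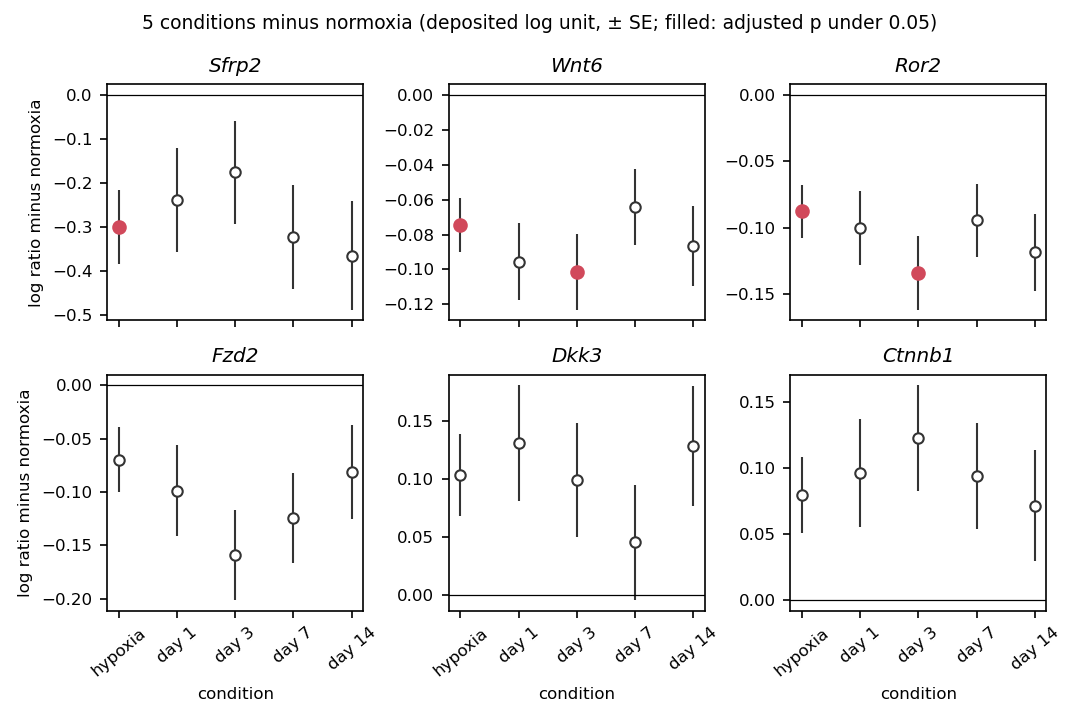
Fitted log ratio against normoxia in hypoxia and on days 1, 3, 7 and 14 of return, ± SE, for 6 members, each on its own scale; filled points have an adjusted p under 0.05. Sfrp2, Wnt6, Ror2 and Fzd2 lie below 0 in all 5 conditions and Dkk3 and Ctnnb1 above 0, and the 5 points of a gene share the same normoxia animals.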

How the data were processed

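Dual-colour arrays of laser-dissected lung vessels from 76 mice, counted as 1 per channel, were used, with groups and replicate numbers taken from the labels. The authors deposited 1 log ratio per feature and array, read here as log10 because the values are small (largest 1.12, array SDs 0.0742 to 0.192). The base is not stated, and the size of the values does not show it. Folds are therefore given on a log10 and a log2 reading, of which limma commonly uses log2. The submitters' processing notes name limma without a version. How background was corrected and arrays were normalized is not given in the sources used here, and brightness was not used. Array medians lay between -0.00306 and 0.00678. Precision is limited by how many arrays there are.

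From 45220 features, 2 were dropped for missing values. Features of 1 gene were averaged (18 of the 48 genes had more than 1), and features without a single symbol stayed as entries of their own. Of all features, 33653 had 1 symbol in the platform annotation, 56 several and 11511 none. The 33652 with 1 symbol and no missing value and the 11566 others gave 30653 entries. Log ratios were fitted with limma 3.58.1 in R 4.3.3 over 38 arrays, with an intercept for the dye and 5 condition terms (32 residual degrees of freedom, median residual SD 0.0821, dye effect past the threshold in 290 entries). Tests were two-sided and each of 13 contrasts was adjusted by Benjamini-Hochberg at 0.05. On simulated data for hypoxia minus normoxia, over 30653 entries, 5% of 40 changed entries were recovered at a size of 0.05, 45% at 0.1, 72.5% at 0.15, 82.5% at 0.2 and 95% at 0.3. The changed entries were drawn from all entries, whatever their spread, and were fewer than the 1102 called in the data. The p needed to pass was thus likely smaller in the simulation, and these shares may understate what the data could recover.

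Members were fixed by symbol, and members, marker lists and pathway lists were chosen with earlier results of these data known. Named with values were the members called in any contrast, the 10 with the smallest p in hypoxia minus normoxia, the 3 with the smallest p in each other contrast and the highest and lowest of each role in hypoxia minus normoxia. The other members named there, Sfrp1, Ror1, Wnt2, Wnt3a, Lrp5, Lrp6, Fzd4, Fzd7 and Axin2, and the ends of printed ranges were added after their values were seen. For other pathway genes the rule took up to 4 per list with the smallest p in hypoxia minus normoxia, of which those most readily described are printed. For each called member the 5 named genes with the highest correlation over arrays were taken. Promoter windows came from RefSeq on GRCm38.p6. Scaling, centring, filter, dye term, weights, marker covariates, single features, a replicate block and each array left out were tried as alternatives. The mean residual correlation was -0.0183 between arrays of the same replicate number (single pairs from -0.378 to 0.405). Between arrays of other numbers it was -0.0304 (-0.367 to 0.352). These means mix conditions and both dye orders, in which opposite signs can cancel, so they cannot show whether replicate numbers pair arrays. Slides and dates were not used.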

Additional observations from a re-analysis of the deposited data

Results flagged for a closer look

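In 5 of 32 sets of direct arrays of named genes, 1 array lay far from the others of its set. Chance flags about 1 in 20 of independent sets that were not picked by their values. The genes here were picked by p or by extreme values, and many of the sets share arrays, so no excess is read from this count. Wnt4 in hypoxia minus normoxia had -0.163 on array N_H 4, with the other 7 between -0.0770 and -0.000392. Wnt5a in the same comparison had 0.235 on array H_N 4, with the others between -0.00836 and 0.103. In day 1 minus hypoxia, Wnt2 had 0.0418 on array N1_H 3 and the other 3 arrays lay between -0.0563 and -0.0428. In day 7 minus day 3, Lrp5 had 0.0699 on array N7_N3 2 and the other 3 between 0.0156 and 0.0219. Fzd4 in day 14 minus day 7 had 0.0602 on array N14_N7 2 and the other 3 between 0.115 and 0.118. None of these genes was called in the comparison named, and array N_H 4 was also the one on which Ror2 and Wnt7b lay above 0 (0.0317 and 0.0262).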

How the results depend on the processing

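In hypoxia minus normoxia, 3 members were called. The count was 0 with the alveolar marker mean as a covariate and 0 with the direct arrays alone, 2 with arrays scaled to 1 spread, 2 with the filter on low SD and 3 in the other 8 settings, the replicate block among them (3 members). Entries of any kind called were 26 with the alveolar covariate and 103 with the direct arrays alone. They were 921 with scaled arrays and 1009 of 22989 with the filter, beside 1102 of 30653 without these changes. With each array left out it ran from 1 to 4, and 1 was reached without array N_H 3. In day 3 minus normoxia, with 2 called, the count was 0 with the alveolar covariate, 1 with the filter on low SD, 3 with the replicate block, where Fzd2 had -0.161 and an adjusted p of 0.0495, and 0 to 3 with each array left out. Entries of any kind called there were 5 with the alveolar covariate, 150 with the filter and 232 with the replicate block, beside 240 without these changes. In day 1 minus normoxia, with 0 called, the count of members was 1 with array weights (Wnt6, -0.0937) and 0 to 2 with each array left out, 2 without array N_H 4. Array weights called 152 entries of any kind there, beside 34 without them. In day 14 minus normoxia the count of members was 0 to 1 with each array left out, and 1 without array N_H 4 (Ror2, -0.135). In the other 9 contrasts, no member was called under any setting that was run. The direct arrays alone could not be fitted for day 14 minus hypoxia, where hypoxia was in Cy3 on all 3 arrays.

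Of single named values, 3 changed sign: Ctnnb1 in hypoxia minus normoxia was -0.00105 with the alveolar covariate, Wnt2b there was 0.0221, and Axin1 in day 14 minus day 1 was -0.00594 without array N1_N14 1, within a range of -0.00594 to 0.143 as each array was left out. The cause was not tested. Of the other recomputed named values, 2382 kept their direction and their side of the threshold, 20 lost the call and 16 gained it. Brightness was not used, so how far signal above background limits these genes was not examined. In the simulation, which changed fewer entries than were called in the data, most differences of 0.05 or 0.1 were not recovered.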
